A study of Nothobranchius furzeri with 20 samples.

Results

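In muscle of turquoise killifish, 70 of the 26739 listed genes met a rule for higher levels at 27 weeks of age than at 9 weeks. Each had a higher level in every 27-week library than in any 9-week library. All 27-week libraries came from swim-tunnel fish, while the 9-week libraries came from 5 swim-tunnel and 5 unexercised samples. The contrast of ages was therefore partly one of exercise. The rule also asked for a minimum level, a minimum ratio and similar levels in both ranges of 27-week sample codes. Of the 26739 genes, 4257 had no count in any of the 20 libraries. Members were chosen on CPM, the counts of a gene divided by the total of its own library and multiplied by 1000000. A member had its lowest 27-week CPM above its highest 9-week CPM, a mean of at least 1 CPM at 9 weeks and 5 CPM at 27 weeks, and a ratio of these means of at least 1.5. The means of 27-week libraries 1 to 5 (sample codes JM132 to JM137) and 6 to 10 (JM139 to JM143) also had to lie within 1.5-fold of each other. The first condition was met by 177 genes and the level conditions also by 130, of which 6 fell short of the ratio. The block condition removed a further 54, of which 53 had higher levels in libraries 1 to 5. Among all 8148 genes that met the level conditions, libraries 1 to 5 stood at a median of 1.26 times libraries 6 to 10. That median changed with the scaling, as described below. The upper limit of 150 members was not reached.

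The turquoise killifish, Nothobranchius furzeri, is an annual fish that is among the shortest-lived vertebrates kept in captivity and is used to study ageing. Skeletal muscle of vertebrates loses mass and changes its gene expression with age. Muscle RNA comes mostly from fibres, with smaller amounts from blood, vessels, nerves, connective tissue and immune cells. In whole muscle, a change in the proportion of a cell type and a change in RNA per cell cannot be told apart.

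All 20 libraries came from muscle of male fish of the strain MZM-04/10p. In 10 of them the fish were 27 weeks old and carried the swim-tunnel label, in 5 they were 9 weeks old with the same label, and in 5 they were 9 weeks old with no perturbation. A swim tunnel makes a fish swim against a current; how long and how fast the fish swam is not stated in the sources used here. Unexercised fish of 27 weeks were not analysed here, so the level in old fish is known with swimming only. The labels gave neither animal identity nor batch, and p-values therefore measure only the spread between these samples. Libraries held 25549097 to 34331958 gene counts at 27 weeks, 24333849 to 38007162 with swimming at 9 weeks and 29504450 to 38571967 without it. The sample codes of the groups did not overlap, and any batch tied to these codes cannot be told apart from age or exercise.

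The identifiers of the tables could not be paired with gene names: 0 of 26739 matched the reference table. The tissue label and cell types could therefore not be checked against marker genes, and no role can be given to a member. Members are numbered 1 to 70 by falling ratio of the 27-week to the 9-week mean and described by number and gene length, and identifiers are given for 2 of them.

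The members as a set made up a small but visible part of the muscle transcript pool. Their summed counts were 4.34% ± 0.666 of a library at 27 weeks (SD, n = 10), 1.82% ± 0.569 with swimming at 9 weeks (SD, n = 5) and 1.402% ± 0.131 without it (SD, n = 5). These sums describe the choice of members and carry no test, since the same values chose them. At 27 weeks the lowest library held 3.40%, the median was 4.30% and the highest held 5.22%. With swimming at 9 weeks the libraries held 2.03%, 2.28%, 2.28%, 0.955% and 1.54%, and without it 1.33%, 1.56%, 1.43%, 1.22% and 1.47%. The 27-week libraries stood clear of all others, while swimming libraries 1, 2 and 3 lay above every unexercised library and swimming library 4 lay below every one.

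**Figure D1:**
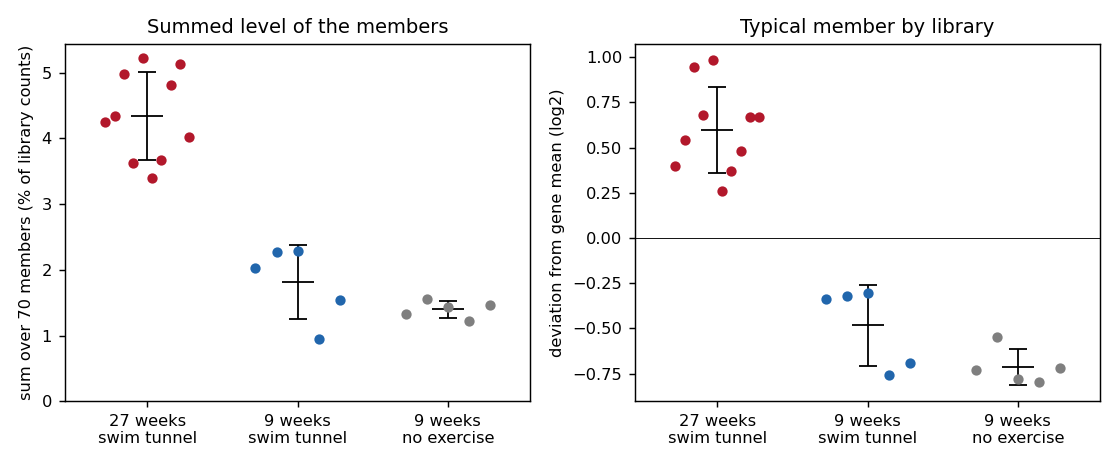
Summed counts of the 70 members in percent of each library (left) and the median over members of the difference between a library's log2 CPM and the gene's mean over all libraries (right). Points are libraries, lines are means and bars are SD. Both panels use own totals. Swimming libraries 1 to 3 of 9 weeks lie between -0.34 and -0.30 in the right panel, apart from libraries 4 and 5 at -0.76 and -0.69. With TMM factors (edgeR's trimmed-mean scaling, not drawn) libraries 1 to 5 stood at -0.43, -0.19, -0.14, -0.87 and -0.67. The unexercised libraries then ran from -0.97 to -0.53.

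Few genes carried most of this sum. Members 22, 18 and 43 alone held 78.4% of it at 27 weeks, and the most abundant of them ranked 9 among all genes by 27-week mean CPM. Without these 3 genes the sum was 9384 ± 1347 CPM at 27 weeks (SD, n = 10), 4427 ± 870 CPM with swimming at 9 weeks (SD, n = 5) and 3514 ± 188 CPM without it (SD, n = 5). By that sum swimming library 4, at 3290 CPM, no longer lay below every unexercised library, which ran from 3268 to 3796 CPM. Swimming libraries 1, 2 and 3 still lay above all of them, at 4869, 5119 and 5157 CPM. The typical member was far less abundant, with a median over members of 40.5 CPM at 27 weeks and 16.2 CPM over the 9-week libraries. Levels at 27 weeks reached 100 CPM in 20 members and 1000 CPM in 6, and lay under 10 CPM in 8.

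Ratios of the 27-week to the 9-week mean ran from 1.504 to 4.53 with a median of 2.42. They reached 2 in 51 members, 3 in 17 and 4 in 3. Separately for the young groups, the median over members was 2.20-fold against swimming fish and 2.56-fold against unexercised fish; these comparisons share the 27-week libraries and are given as levels of the members only. All of these figures restate the rule, and 1.06% of the 16653 genes with enough counts to be tested had every 27-week library above every 9-week library.

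**Figure D2:**
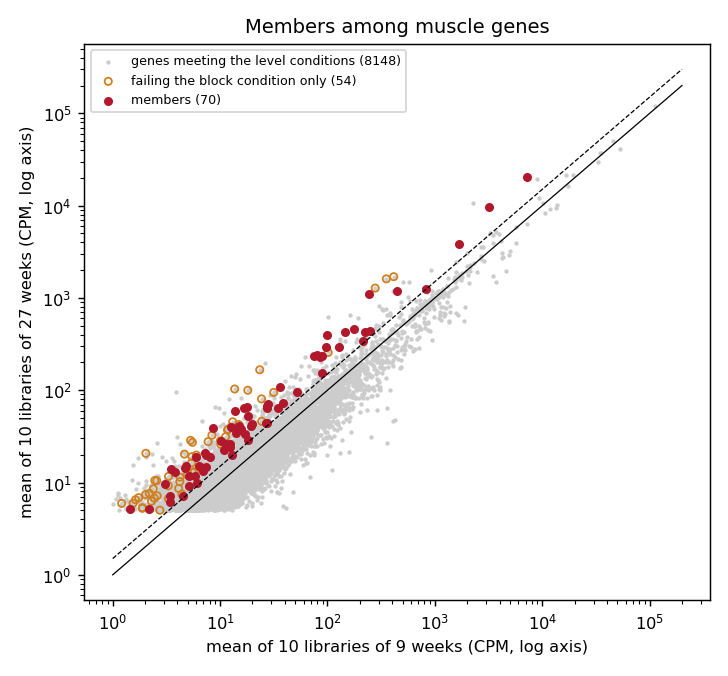
Mean CPM over the 27-week libraries against mean CPM over the 9-week libraries, on log axes. Filled points are the 70 members, open points the 54 genes that failed only the block condition, and grey points the 8148 genes that met the level conditions. The solid line marks equal levels and the dashed line the ratio of 1.5. Members span levels from 5.16 to 20658 CPM at 27 weeks.

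Member 1, Nfu_g_1_002532 (5508 bases), had the largest ratio, 4.53. At 27 weeks its lowest library stood at 21.5 CPM, the median at 37.3 CPM and the highest at 69.5 CPM. With swimming at 9 weeks it had 5.15, 11.0, 10.7, 9.67 and 16.6 CPM, and without swimming 7.08, 7.70, 6.50, 7.95 and 3.49 CPM. The young groups overlapped, and swimming library 5 set the upper limit of the 9-week range. The mean was 38.8 ± 15.1 CPM at 27 weeks (SD, n = 10), 10.6 ± 4.07 CPM with swimming at 9 weeks (SD, n = 5) and 6.55 ± 1.798 CPM without it (SD, n = 5).

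Member 2 (768 bases) combined a high ratio, 4.51, with a high level. At 27 weeks it ranged from 636.3 to 1638 CPM around a median of 1101 CPM. With swimming at 9 weeks its libraries had 337.6, 373.2, 525.7, 91.2 and 181.6 CPM, and without swimming 161.2, 213.5, 245.5, 121.1 and 182.7 CPM. Swimming libraries 1 to 3 lay above all unexercised libraries and library 4 below them, the order also seen in the summed counts.

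Members 3 and 4 (2816 and 3402 bases) followed with ratios of 4.33 and 3.99. Member 3 averaged 59.1 ± 15.3 CPM at 27 weeks (SD, n = 10), 16.7 ± 7.10 CPM with swimming at 9 weeks (SD, n = 5) and 10.6 ± 4.68 CPM without it (SD, n = 5). Member 4 averaged 394.8 ± 109.8 CPM at 27 weeks (SD, n = 10), 123.0 ± 42.6 CPM with swimming at 9 weeks (SD, n = 5) and 74.7 ± 13.2 CPM without it (SD, n = 5). In both, the swimming mean lay between the other two.

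Member 5 (1062 bases) had the same ratio to 2 decimals as member 4, 3.99, but the other order of the young groups. It averaged 14.0 ± 5.41 CPM at 27 weeks (SD, n = 10), 2.60 ± 1.93 CPM with swimming at 9 weeks (SD, n = 5) and 4.43 ± 1.64 CPM without it (SD, n = 5). Its swimming libraries were uneven, with 0.731, 4.83, 0.947, 2.06 and 4.44 CPM, against 2.91, 5.21, 5.96, 5.64 and 2.43 CPM in unexercised libraries. Libraries 1 and 3, with high summed counts of all members, were the lowest here.

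Members 6 to 9 (1062, 4539, 325 and 969 bases) had ratios of 3.82, 3.71, 3.59 and 3.41. Their 27-week means were 63.6, 65.5, 5.16 and 13.1 CPM, those with swimming at 9 weeks were 18.5, 20.2, 1.67 and 4.95 CPM, and those without swimming were 14.8, 15.2, 1.2 and 2.71 CPM. In each of these 4 genes the swimming mean lay above the unexercised mean.

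The 5 most abundant members were numbers 22, 18, 43, 70 and 26. Member 22, Nfu_g_1_023427 (2466 bases), had the highest level on either scale, by CPM and by CPM per 1000 bases of gene length. At 27 weeks its lowest library had 14383 CPM, the median was 20742 CPM and the highest had 27389 CPM. With swimming at 9 weeks it had 9246, 11417, 10222, 3653 and 6162 CPM, and without swimming 6568, 7128, 6402, 4991 and 6694 CPM. Its ratio was 2.85, and the young groups overlapped.

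Member 18 (3049 bases) was the next most abundant, with 7121 to 12315 CPM at 27 weeks around a median of 9828 CPM. With swimming at 9 weeks it had 4768, 4463, 5852, 1600 and 4094 CPM, against 1744, 2646, 2106, 2168 and 2473 CPM without swimming. Swimming library 4 had the lowest value of all 20 libraries, whereas the other swimming libraries lay above every unexercised one.

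Member 43 (5120 bases) had 3230 to 4493 CPM at 27 weeks around a median of 3856 CPM. With swimming at 9 weeks it had 1408, 1753, 1614, 1002 and 1447 CPM, against 1460, 2056, 2299, 1800 and 2009 CPM without swimming. Its swimming mean of 1445 ± 283 CPM lay below its unexercised mean of 1925 ± 315 CPM (SD, n = 5 each), and the groups overlapped.

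Member 70 (2965 bases) had the smallest ratio, 1.504, and the smallest relative spread at 27 weeks, a coefficient of variation of 8.47%. It averaged 1250.2 ± 105.9 CPM at 27 weeks (SD, n = 10), 936.7 ± 126.8 CPM with swimming at 9 weeks (SD, n = 5) and 726.0 ± 52.9 CPM without it (SD, n = 5). Member 26 (3332 bases) averaged 1203 ± 219 CPM at 27 weeks (SD, n = 10), 526.9 ± 202.1 CPM with swimming at 9 weeks (SD, n = 5) and 361.9 ± 37.5 CPM without it (SD, n = 5). Per 1000 bases of gene length, at 27 weeks member 22 stood at 8377 CPM, member 18 at 3134 CPM and the short member 2 at 1430 CPM, so that member 2 ranked 3 per length and 6 by CPM.

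**Figure D3:**
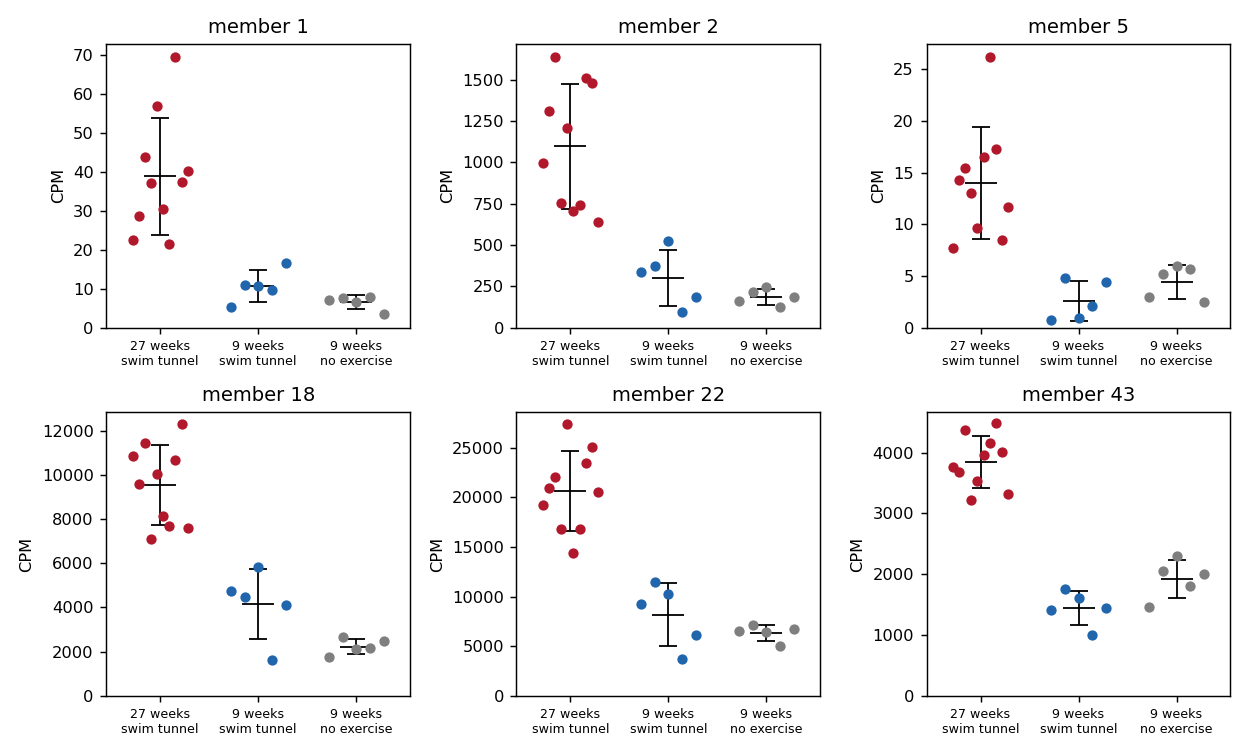
CPM by library of members 1, 2, 5, 18, 22 and 43, with the mean as a line and the SD as bars. In each panel the lowest 27-week library lies above the highest 9-week library, as the rule requires. Swimming fish of 9 weeks average more than unexercised fish in members 1, 2, 18 and 22, and less in members 5 and 43.

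The margin by which the ages stood apart was narrow for most members. The lowest 27-week library was 1.15 times the highest 9-week library in the median member, at least 1.3 times in 14 members and less than 1.1 times in 28. The widest margin was that of member 10 (2438 bases), with 12.4 CPM in its lowest 27-week library and 7.79 CPM in its highest 9-week library, a ratio of 1.59. Member 69 (1128 bases) had the narrowest, with 15.405 CPM in its lowest 27-week library and 15.4 CPM in its highest 9-week library. The gene just outside on this condition had 7.55 CPM in its lowest 27-week library and 7.56 CPM in its highest 9-week library.

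At the other thresholds, the gene just under the ratio of 1.5 averaged 77.8 CPM at 27 weeks and 51.9 CPM at 9 weeks. The largest block ratio among members was 1.495, and the nearest gene outside stood at 1.516.

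On own totals, a few libraries decided where the margin lay. Library 6 was the lowest of the 27-week libraries in 24 members, library 7 in 13 and library 1 in 9. Among the 9-week libraries the highest value came from a swimming fish in 56 members and from an unexercised fish in 14. Swimming libraries 2 and 3 were the highest in 18 members each and library 1 in 14. These highest values are the ceiling of the rule. No share over all genes is given beside the counts, and nothing about swimming is read from them. At 27 weeks, libraries 5 and 3 were the highest of their group in 27 and 23 members. With TMM factors this order did not hold: libraries 7 and 9 were the highest in 14 members each, library 10 in 13, library 8 in 12, library 5 in 10 and library 3 in 3. On that scale library 6 was the lowest in 21 members, library 1 in 20, library 2 in 16 and library 7 in 1.

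**Figure D4:**
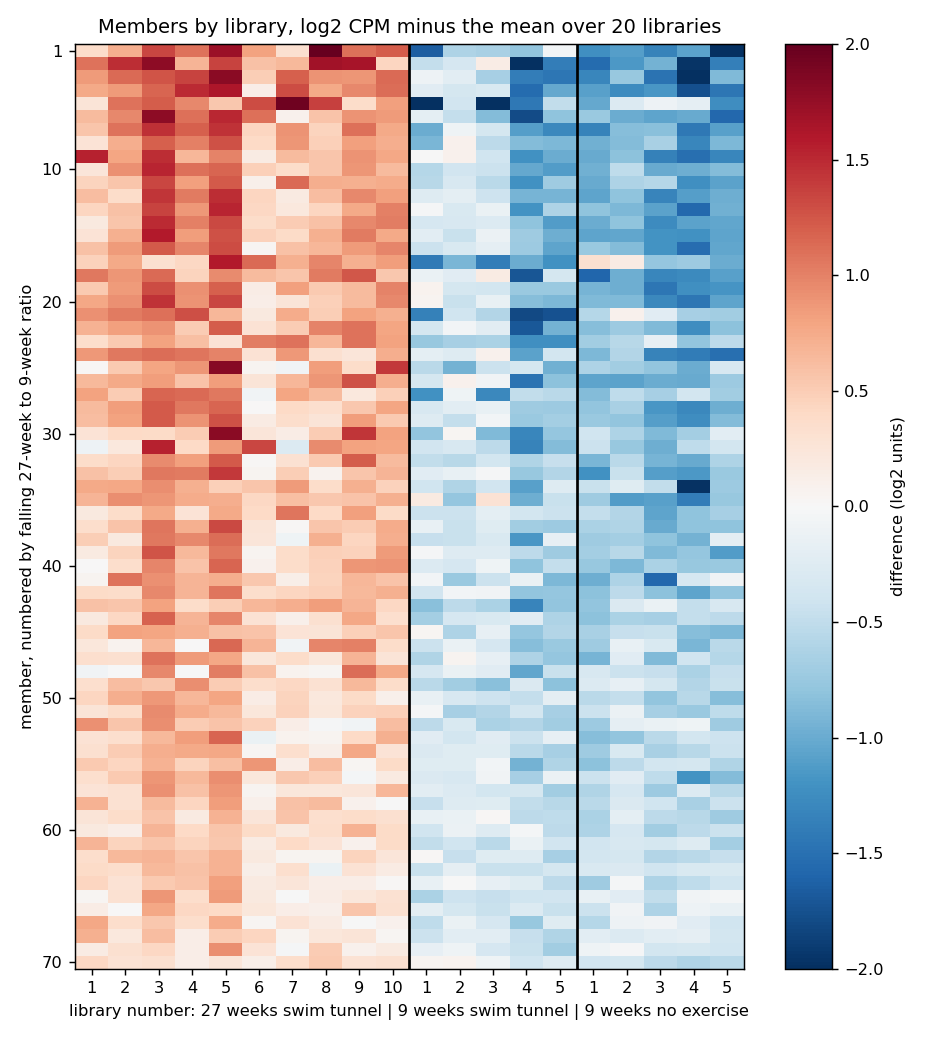
Log2 CPM of each member in each library, on own totals, minus the member's mean over all 20 libraries; each row is a member, by falling ratio, and each column a library. At 27 weeks libraries 3 and 5 are darkest for many members, and at 9 weeks swimming libraries 4 and 5 resemble the unexercised libraries more than swimming libraries 1 to 3 do.

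Swimming at 9 weeks was a labelled comparison that the rule did not make directly. Its 10 libraries, pooled, set the ceiling of the rule and the young mean of its ratio. All old libraries carried the swim-tunnel label, so the contrast of the rule was partly one of exercise. Results of members in this comparison are therefore not independent of the rule, and they are descriptions. No member passed the test: 0 of 70 were called higher and 0 lower (quasi-likelihood test of edgeR, p adjusted over 16653 genes after Benjamini and Hochberg, threshold 0.05), beside 0.18% of all tested genes called. Of all tested genes 0.108% were called higher and 0.0721% lower. With so low a share over all genes, a count of 0 among 70 members is not a result about the members. DESeq2 called 4 members higher and 0 lower (members 18, 19, 24 and 35), beside 1.23% and 0.889% of all genes, and limma-voom called 0 in either direction, beside 0.138% higher and 0.102% lower. Without swimming library 4 the edgeR test also called 4 members higher, the same numbers, and 0 lower, beside 0.372% and 0.171% of all genes.

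Most members had a positive fold change with swimming, none of them past the test. Their fold changes with swimming had a median of 0.31 on the log2 scale and ran from -0.95 to 0.96; the median over all 16653 tested genes was 0.04, and that over the 8148 genes that met the level conditions was 0.01. The log2 fold change was above 0 in 55 of 70 members, beside 54.5% of all tested genes and 51.9% of the genes that met the level conditions. At an unadjusted p under 0.05, edgeR found 20 members higher and 2 lower, beside 7.87% and 5.76% of all tested genes. The 20 members higher became 13 without swimming library 2 (6.44% of all tested genes), 13 without library 3 (6.46%) and 33 without library 4 (8.31%). They became 32 with totals that left out the 50 most abundant genes (9.87%), a scaling that put the median log2 fold change of all tested genes at 0.12. Among the genes that met the level conditions the shares higher and lower with TMM factors and all libraries were 8.87% and 7.35%. Members move together within a group, as described below, so these counts are not 70 separate observations. Nor are they independent of the rule, whose contrast also spans exercise.

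**Figure D5:**
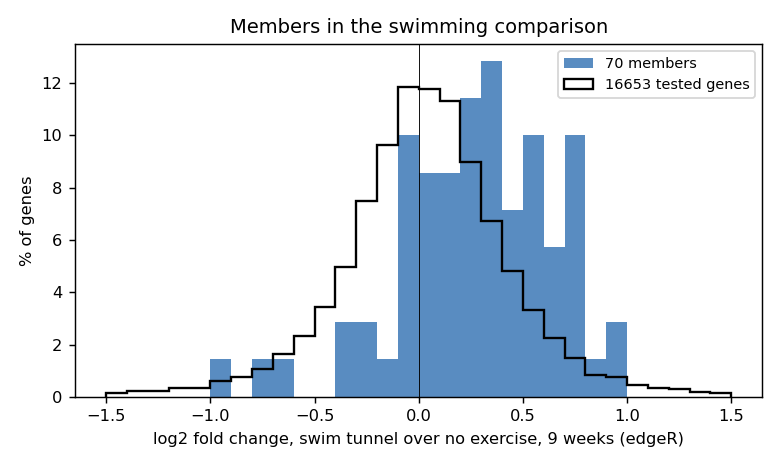
Distribution of the log2 fold change with swimming at 9 weeks (edgeR) for the 70 members (filled) and all 16653 tested genes (outline), in percent of each set; genes beyond 1.5 in either direction are not drawn. The members' median of 0.31 lies to the right of the median of all tested genes, 0.04, and no member passed the adjusted threshold.

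Member 19 (1086 bases) had the smallest p of all members in this comparison. It had 63.2, 47.1, 46.8, 35.7 and 35.9 CPM with swimming, against 31.5, 30.4, 21.8, 25.5 and 26.4 CPM without it. The groups did not overlap, and the log2 fold change was 0.78 (SE 0.20, edgeR unadjusted p = 0.000762, adjusted p = 0.0968). At 27 weeks this gene had 67.3 to 149.6 CPM.

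Members 24 and 35 (1128 and 1252 bases) came next. Member 24 averaged 13.0 ± 3.55 CPM with swimming and 7.31 ± 2.22 CPM without it (SD, n = 5 each), and its log2 fold change was 0.87 with an SE of 0.23 (edgeR adjusted p = 0.117). Member 35 averaged 19.8 ± 7.86 CPM with swimming and 11.7 ± 2.31 CPM without it (SD, n = 5 each), and its log2 fold change was 0.79 with an SE of 0.23 (edgeR adjusted p = 0.142).

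Member 18, shown above by library, had the largest log2 fold change with swimming among members, 0.96 (SE 0.28, edgeR adjusted p = 0.142). That of member 22 was 0.40 (SE 0.28, edgeR adjusted p = 0.582) and that of member 1 was 0.74 (SE 0.36, edgeR adjusted p = 0.373). These members, too, did not pass the test.

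The most negative value was that of member 17 (3021 bases), a log2 fold change of -0.95 (SE 0.31, edgeR unadjusted p = 0.00572, adjusted p = 0.178). Its swimming libraries were even, at 2.61, 3.92, 2.68, 3.67 and 3.08 CPM, and the unexercised libraries ran from 3.69 to 9.90 CPM. Member 21 was the other gene with an unadjusted p under 0.05 and a lower level with swimming, at 14.0 CPM against 22.7 CPM without it (edgeR adjusted p = 0.322).

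Every swimming library lay above every unexercised library in 5 members, numbers 15, 19, 29, 36 and 50, and below in 0; among all tested genes the shares were 2.25% and 1.82%. On own totals swimming library 4 was the lowest of its group in 34 of 70 members and the highest in 5. Library 5 was the lowest in 25 and the highest in 5. With TMM factors library 4 was the lowest in 44 and the highest in 2, and library 5 in 17 and 2. No share over all genes is given beside these counts, which are descriptions only. Without swimming library 4 the median log2 fold change of the members was 0.39, and without swimming library 2 it was 0.22.

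Levels of the members varied together between libraries of the same group. The rule did not ask for this directly, but it used the same values, through the separation of the ages and the block condition. How far that choice shaped the correlations was not tested. With libraries scaled by TMM factors (edgeR's trimmed-mean scaling), the median Pearson correlation of log2 CPM over the 2415 pairs of members was 0.43 across the 10 libraries of 27 weeks, 0.69 across the 5 swimming libraries of 9 weeks and 0.52 across the 5 unexercised ones. Pairs of genes that met the level conditions had medians of 0.03, 0.08 and 0.01 in the same groups. With own-total scaling the medians were 0.43, 0.45 and 0.24 for members and 0.23, 0.20 and 0.27 for those genes, so that in the unexercised group members did not exceed those genes on this scale. Each correlation rests on few libraries, all genes of a library share its preparation and depth, and these values are descriptions.

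Within a group, the relative spread of members was near that of other genes. The rule bears on this spread, since it asked for separated ages and similar block means, so the values are descriptions. The median coefficient of variation was 23.6% at 27 weeks, 21.4% with swimming at 9 weeks and 16.8% without it. Over the genes that met the level conditions it was 26.9%, 18.3% and 17%. Member 25 (4540 bases) varied most at 27 weeks, with a coefficient of variation of 48.0% and values from 22.4 to 84.8 CPM, the highest in library 5.

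The comparison of 27-week libraries 1 to 5 with libraries 6 to 10 depended on the scaling. On own totals, the mean of libraries 1 to 5 was above that of libraries 6 to 10 in 58 members, with a median ratio of 1.23, and the genes that met the level conditions had a median of 1.26. With TMM factors it was above in 15 members, with a median ratio of 0.90 beside 0.94 for those genes. The block condition limited the block ratio of the members to 1.5-fold on own totals by choice, so these medians are descriptions only. Libraries 1 to 5 lay wholly above libraries 6 to 10 in 4 members on own totals, numbers 61, 63, 64 and 67, beside 28.7% of all tested genes; the block condition used this contrast, and nothing is read from the count.

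The separation of the ages depended on the scaling. Every 27-week library stayed above every 9-week library in 46 members each with TMM and median-of-ratios factors, 60 with upper-quartile factors and 53 without the 50 most abundant genes in the totals. No share of separated genes on these scales is given beside these counts, which only describe members chosen on own totals. The share of all genes that met the whole rule was larger on each of these scales than the 0.262% on own totals. It was 0.453% with TMM, 0.441% with median-of-ratios and 0.662% with upper-quartile factors, and 0.396% without the 50 most abundant genes. The median ratio of the 27-week to the 9-week mean lay between 2.36 and 2.56 on these scales, a description of genes chosen for that ratio.

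Gene length, recovered from the authors' RPKM table, varied widely among the members. It ranged from 213 bases in member 52 to 12231 bases in member 32, with a median of 3265 bases, beside 3439 bases for the genes that met the level conditions. Member 52 averaged 24.2 ± 5.83 CPM at 27 weeks (SD, n = 10), 11.5 ± 1.32 CPM with swimming at 9 weeks (SD, n = 5) and 13.4 ± 2.96 CPM without it (SD, n = 5). Member 32 averaged 70.7 ± 19.9 CPM at 27 weeks (SD, n = 10), 30.6 ± 1.90 CPM with swimming at 9 weeks (SD, n = 5) and 24.9 ± 3.77 CPM without it (SD, n = 5).

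In 4 pairs, members stood in neighbouring rows of the deposited table. Members 14 and 15 (4464 and 4081 bases) had nearly the same levels, 232.8 ± 70.1 and 241.5 ± 74.1 CPM at 27 weeks (SD, n = 10), 88.2 ± 21.1 and 96.8 ± 22.8 CPM with swimming at 9 weeks (SD, n = 5), and 62.9 ± 7.04 and 61.4 ± 3.65 CPM without it (SD, n = 5). On own totals, their log2 CPM had a Pearson correlation of 0.94 across the 10 libraries of 27 weeks. The median over all pairs of members was 0.43 on that scale. Members 7 and 8 had the same correlation, 0.94, at very different levels, 65.5 and 5.16 CPM at 27 weeks. The correlations were 0.88 for members 47 and 54 and 0.69 for members 67 and 56. Across the 5 unexercised libraries they were 0.75 for members 14 and 15, 0.86 for members 7 and 8, 0.87 for members 47 and 54 and 0.13 for members 67 and 56. In the same order of pairs, the 5 swimming libraries of 9 weeks gave 0.95, 0.92, 0.80 and 0.73. Whether neighbouring rows are neighbours in the genome, copies of one gene or parts of one transcript is not known from these files, nor is how shared reads were assigned.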

How the data were processed

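RNA of muscle from male killifish was sequenced in 20 libraries; per the labels' protocols, libraries were made with the TruSeq RNA kit. The submitters' processing notes list featureCounts 1.4.6-p4, STAR 2.4.1d and bcl2fastq 1.8.4. Settings, strand use, genome build and annotation: not given in the sources used here. Overlapping, antisense and near-identical genes are therefore uncertain. The authors deposited raw counts and RPKM values for 26739 genes in 20 columns. The deposited RPKM values matched the counts for 100% of the nonzero values of 3169 genes when library totals ran down the rows. With own totals and the same gene lengths 5.21% matched. Those lengths had been solved with the totals that ran down the rows, so the 5.21% is not a separate test. RPKM served only to recover gene lengths (all 70 members, within 1%). None of the identifiers matched the 38438 reference genes.

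Members, lists and tests were chosen with earlier results of these data known. Swimming at 9 weeks was tested with edgeR 4.0.16 in R 4.3.3: filterByExpr with its minimum count of 10, which all 70 members passed, TMM factors and a robust quasi-likelihood fit of all 3 groups, two-sided, with Benjamini-Hochberg adjustment over 16653 genes. SE is the size of the log2 fold change over the root of F. DESeq2 1.42.0 and limma-voom (limma 3.58.1) were alternatives. Age and block differences were not tested, since the rule used them. Correlations used log2(CPM + 0.5). Library numbers follow accession order and pair nothing. By rule, the text describes the 9 members of largest ratio, the 5 of highest 27-week mean, the extremes of margin, spread and length and any called with swimming; all others were chosen after their values were seen. Planned marker lists could not be applied without gene names.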

Additional observations from a re-analysis of the deposited data

Results flagged for a closer look

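Of the described members, only the 19 chosen by rule were screened here, not those chosen after their values were seen. Library values were those of these 19 members, the summed CPM of all members and their median log2 deviation, each in 3 groups. Of these 63 groups of values, 4 held a library far from the others when its gap was divided by the whole range (Dixon). Chance gives about 1 in 20 groups, or 3.15, for values not picked for their extremes. Members 10 and 69 were picked for their margins and members 25 and 70 for their spread. That rate is therefore no fair measure here, and nothing is read from the count. Member 5 had 26.2 CPM in 27-week library 7, against 7.73 to 17.3 CPM in the other libraries. Member 69 had 30.4 CPM in 27-week library 5, against 15.4 to 22.5 CPM in the others. Among unexercised libraries, member 10 had 7.13 CPM in library 2, against 4.89 to 5.47 CPM, and member 26 had 427.8 CPM in library 5, against 336.2 to 354.4 CPM.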

How the results depend on the processing

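The genes that met the rule were 0.262% of all 26739 genes on own totals. They were 0.662% with upper-quartile factors (58 of the 70 members among them), 0.441% with median-of-ratios size factors (43 members), 0.453% with TMM factors (43 members) and 0.396% without the 50 most abundant genes in the totals (53 members). The share was 0.464% without the block condition and 0.105% with blocks within 1.2-fold. Leaving out single libraries gave 0.243% to 0.396%, the highest without 27-week library 7, where 65 of the members were kept. Members called higher with swimming at 9 weeks, 0 by edgeR, numbered 4 with DESeq2, 1 without 27-week libraries 6 to 10, 1 at an adjusted p under 0.1 and 0 to 4 without single libraries, the 4 without swimming library 4; the number called lower was 0 in every fit run. Of all tested genes, 0.18% were called in that comparison. This share was 0.0712% without a low-count filter, 2.12% with DESeq2, 1.119% with the 9-week groups alone, 2.04% without 27-week libraries 1 to 5, 3.17% without libraries 6 to 10 and 0.835% at an adjusted p under 0.1. Without single libraries it ran from 0.00592% (unexercised library 3) to 0.544% (swimming library 4). Without single libraries the median log2 fold change of members with swimming lay between 0.22 and 0.39, and 51 to 58 members lay above 0; that count, the counts at an unadjusted p without single libraries and the TMM-scaled correlations and library orders were chosen after seeing the data. The cause of these shifts was not tested. No paired analysis was possible because the labels give no replicate numbers. Depth limits the rarest members most, the lowest 9-week mean being 1.44 CPM.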
